A study of Mus musculus with 10 samples.

Results

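The growth arrest-specific RNA Gas5 and the RNAs named Snhg, for small nucleolar RNA host gene, were followed through 3 translation inhibitors in mouse embryonic stem cells. Every listed transcript with the GENCODE M21 symbol Gas5 or a symbol starting with Snhg was taken, which gave 10 host RNAs, each with 1 transcript, among 15269 listed transcripts. These 10 transcripts carry 420 of the 75579 listed ORFs, of which 172 start with AUG and 248 with CUG. The members are Gas5, Snhg3, Snhg5, Snhg6, Snhg11, Snhg12, Snhg15, Snhg17, Snhg18 and Snhg20, and all 10 passed the filter of at least 10 reads in at least 2 of the profiling libraries.

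The cells were CGR8, a feeder-free mouse embryonic stem cell line of strain 129 kept in leukemia inhibitory factor. Ribosome profiling sequences the RNA stretches that ribosomes shield from RNase, called footprints, and was done in 8 libraries, 2 per condition: untreated control, 1 µM DMDA-PatA for 10 min, 2 µg/ml harringtonine for 10 min, and 0.2 mg/ml puromycin for 20 min. Another 2 libraries hold the transcriptome of untreated cells, sequenced without RNase footprinting. DMDA-PatA is an analog of pateamine A, which targets the helicase eIF4A used in 5′ cap scanning. Harringtonine stalls ribosomes as they begin elongation, and puromycin ends the nascent chain early. All cultures received the same amount of DMSO, and cycloheximide was present during lysis and washing. Nuclei were spun out before RNase was added and monosomes were collected by pelleting, so a footprint here is any protected fragment in that pellet. The study's methods call the 2 libraries of a condition biological replicates without saying what was replicated, so the p-values measure only the spread between these libraries.

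Small nucleolar RNAs, or snoRNAs, guide methylation and pseudouridylation of ribosomal and spliceosomal RNA, and most are cut from introns of a longer host transcript after splicing. In Gas5 and the Snhg RNAs the spliced exons hold no long conserved ORF, yet several of them are known to leave the nucleus, to be bound by ribosomes and to be removed by nonsense-mediated decay, the pathway that degrades RNAs on which ribosomes stop early. Gas5 is also known as a 5′ terminal oligopyrimidine RNA, a class whose 5′ end starts with C and a run of pyrimidines.

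On the GRCm38 build the listed Gas5 transcript spans 1:161034929-161038535 on the plus strand in 10 exons, 665 nt long when spliced, with 10 snoRNA genes inside its span. Snhg5 (9:88521052-88522890, minus strand) has 5 exons and 1004 nt, and Snhg12 (4:132308678-132311024, plus) has 4 exons, 935 nt and 5 such genes within. Snhg15 (11:6527899-6528746, minus) has 2 exons and 675 nt, Snhg17 (2:158355307-158361510, minus) has 6 exons and 1553 nt, and Snhg18 (15:32240565-32244662, minus) has 2 exons and 1486 nt. Snhg6 (1:9942023-9943223, minus, 816 nt) lies opposite a coding exon of Mcmdc2, and Snhg3 (4:132351934-132352933, minus, 581 nt) shares strand and sequence with coding exons of Rcc1, so reads of the overlap cannot be assigned to one gene. Snhg20 (11:117076802-117078954, plus) is a single exon of 2153 nt. Snhg11 (2:158375638-158386145, plus, 5864 nt) is the only host that GENCODE M21 types as protein coding, and the only one with a single listed ORF.

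Of these hosts 4 have a small RNA inside a listed exon rather than in an intron, and this matters for the footprints below. The H/ACA snoRNA Snora73a occupies nt 1 to 159 of Snhg3, Snora9 occupies nt 409 to 541 of Snhg15, and the C/D snoRNA Snord99 occupies nt 602 to 675 of Snhg12. In Snhg20 the Cajal body RNA Gm26083 occupies nt 442 to 634, followed by the overlapping hairpin Mir6516 at nt 547 to 656.

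The 5′ ends of the listed transcripts of 4 hosts open with an unbroken pyrimidine run, shown in capitals in the first 20 bases (GENCODE M21 exons on GRCm38, sense strand).
Gas5: CCCCTCagcctgtactcctc
Snhg5: TTCTTTTacgacggagccta
Snhg12: TTTCTCgcttcatccgcggt
Snhg18: TCCTCTagccccgcctcttc
A run that begins with C and continues for at least 4 more pyrimidines was found at the listed 5′ end of 1 of the 10 hosts, Gas5, and of 2.51% of all listed transcripts. No control footprint was listed on Gas5 before nt 290. A RefSeq Gas5 transcript starts at nt 238 of the listed one, and this end is shown because it lies within the stretch that held no control footprints, ahead of the ORF start at nt 247, again with the run in capitals.
Gas5 from the RefSeq start: CTTTCggagctgtgcggcat

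The start codons of the ORFs that the results below turn on are printed in capitals with the 10 bases on either side. A footprint is assigned to an ORF by lying anywhere inside it, so a start shown here need not itself carry footprints.
Gas5 nt 247: cctttcggagCTGtgcggcattc
Gas5 nt 269: ctgagcaggaATGgcagtgtgga
Gas5 nt 290: gacctctgtgATGggacatcttg
Snhg5 nt 162: gcagcagctaATGatatttcggg
Snhg5 nt 214: actaagcggcCTGactgaaggcc
Snhg15 nt 24: gctggcagccATGgctggcgggt
Snhg17 nt 17: tgtcgcgtggATGtgtttcctct
Snhg3 nt 34: ttgcccggtgATGtacagtccct
Snhg20 nt 447: ggccgacggtCTGggaaaaggct
One ORF of Snhg5 is only 9 nt long and is shown whole, with its codons in capitals and the stop codon directly after them.
Snhg5 nt 60 to 68: ttacagtcggATGACCAAGtgaaatatag

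Depth and spread between libraries set what can be read from these RNAs. The control libraries held 9611889 and 11217378 reads on listed transcripts, and the other 6 profiling libraries between 1072713 and 2868571. The transcriptome libraries held 26034565 and 60603548. Values are deposited footprints scaled to a spiked-in RNA, and 1 read is worth 0.631 to 2.07 of these units depending on the profiling library. Over the 8928 transcripts with at least 100 control footprints, the value in harringtonine library 1 was a median of 1.62 times that in library 2, and over the hosts this ratio had a median of 1.75 with library 1 higher in all 10. For DMDA-PatA the median ratio of library 1 to library 2 was 0.654. All 10 embryonic stem cell markers were listed and summed to 48426 and 45899 control footprints. Neural markers summed to 86.1 and 80.7, mesoderm markers to 663 and 733, and the 3 listed endoderm markers to 133 and 81.6. The 3 fibroblast markers summed to 17395 and 13505, and whether cells of another type carried them was not tested. In the transcriptome 1 of these markers had a mean of 172700 normalized reads, beside sums of 173860 and 173330 over all 3.

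In untreated cells the hosts spanned nearly 2 orders of magnitude of footprints per kilobase of transcript. Snhg20 led with 1028 and 1234 footprints per kb in the control libraries, followed by Snhg5 with 776 and 580. Snhg15 (313 and 298) and Snhg3 (363 and 212) overlapped, as did Snhg12 (118 and 98.9) with Snhg6 (106 and 110.0), and Snhg6 with Gas5 (129 and 79.1). Snhg17 had 60.7 and 37.9 per kb, Snhg18 15.87 and 15.86, and Snhg11 11.5 and 14.8.

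The TE-score, footprints divided by transcriptome reads after scaling both to the same sum, placed Gas5 first among the hosts. Gas5 scored 2.30, or 2.73 and 1.83 in the library pairs, above 91.1% of the 13821 coding transcripts with a score. Its transcriptome level was low, at 112 and 111 normalized reads, against 2803 and 3137 for Snhg5. Snhg20 scored 1.26, Snhg15 0.896 and Snhg5 0.847, close to the median of coding transcripts (0.811). Snhg18 (0.548), Snhg3 (0.422), Snhg6 (0.325), Snhg12 (0.309) and Snhg17 (0.174) were lower, and Snhg11 was lowest at 0.0762. The median was 0.485 over the hosts and 0.333 over 732 other noncoding RNAs.

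A test of control footprints against transcriptome reads, scaled to the typical transcript, called 2 hosts higher and 6 lower, where 34.5% of the 15099 tested transcripts were called higher and 37.4% lower. The log2 ratio was 1.42 ± 0.22 (SE) for Gas5 (edgeR quasi-likelihood test, adjusted p = 4.96e-05) and 0.60 ± 0.19 for Snhg20 (edgeR, adjusted p = 0.00977). The lower hosts ranged from -0.61 ± 0.24 for Snhg18 to -3.43 ± 0.17 for Snhg11, with Snhg17 at -2.29, Snhg12 at -1.45, Snhg6 at -1.37 and Snhg3 at -1.02. Snhg5 and Snhg15 did not pass. The Snhg20 ratio turned to -2.39 ± 0.17 (edgeR, adjusted p = 2.39e-08) when the reads at its embedded small RNAs were set aside, and without transcriptome library 1 it was 0.20 and no longer called. Without transcriptome library 2 or either control library Snhg18 was not called.

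**Figure D1:**
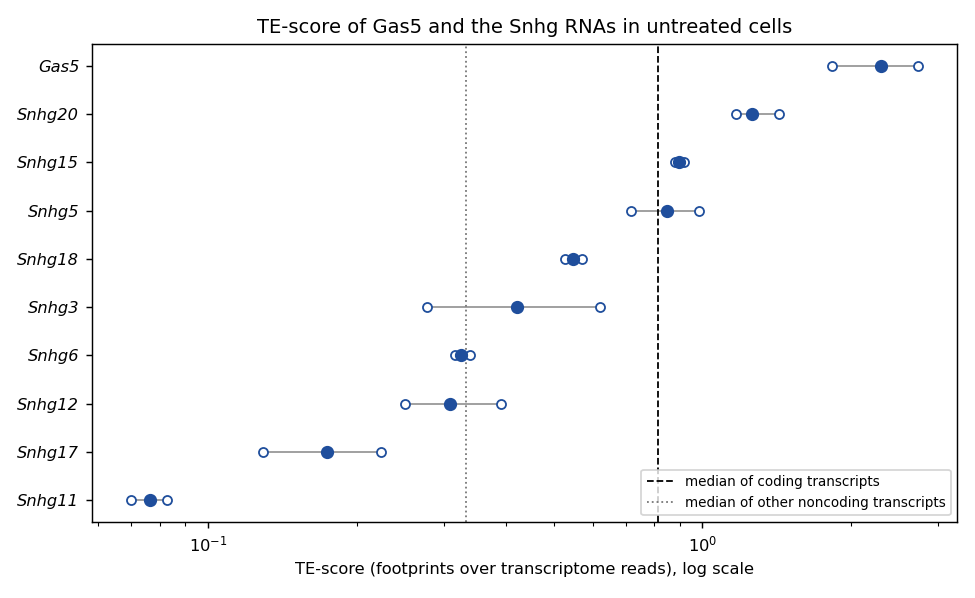
TE-score of each host RNA in untreated cells on a log axis, with points for the library pairs and their pooled score, and lines for the medians of coding (0.811) and other noncoding (0.333) transcripts. The pooled scores of Gas5 and Snhg20 lie to the right of the coding median, those of Snhg15 (0.896) and Snhg5 (0.847) slightly so. Snhg11 is farthest to the left, at 0.0762. Most control footprints of Snhg20 lay at its embedded small RNAs.

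The place of the footprints was set beside that of the transcriptome reads, for the ORF of each host with the most control footprints. That choice in part fixes a higher share for control footprints, so the shares are a description. On Gas5 the ORF at nt 247 to 456 held 93.1% and 93.0% of control footprints but 45.6% and 56.0% of transcriptome reads. Between the listed starts at nt 290 and nt 322 the cumulative control footprints went from 0 in both libraries to 60.1 and 32.6, out of 86.1 and 52.6 on the whole RNA. Transcriptome reads rose over the same stretch too, from a cumulative 30.5 and 19.3 to 56.2 and 58.5, out of 112 and 111. On Snhg5 the 9-nt ORF at nt 60 to 68 held 36.9% and 34.03% of control footprints but 2.28% and 1.49% of transcriptome reads. On Snhg6 the CUG ORF at nt 586 to 618 held 73.6% and 75.6% of control footprints against 3.68% and 2.55% of transcriptome reads. On Snhg12 the shares were alike, at 35.5% and 49.0% of control footprints and 37.0% and 35.2% of transcriptome reads. On Snhg11 the listed ORF held 0% and 1.04% of the control footprints, so nearly all lay outside it.

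The question put to each drug was how far footprints on these RNAs fall when initiation, early elongation or chain growth is blocked. DMDA-PatA lowered footprints on 2 of the 10 hosts and raised none, while 98.0% of the 12877 transcripts tested were called lower and 0.264% higher. The median log2 change of the hosts was -0.51, against -3.55 over all transcripts, -3.57 over 12404 coding ones and -2.63 over 337 other noncoding ones, of which 78.9% were called lower. Both DMDA-PatA libraries lay below both controls for 6 hosts and above both for none, as they did for 98.5% and 0.373% of all tested transcripts.

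Snhg18, the host with the fewest footprints, showed the deepest fall. It had 23.58 and 23.57 normalized footprints in the control libraries and 2.53 and 5.68 after DMDA-PatA. The groups were apart, and the log2 change was -2.54 ± 0.61 (edgeR, adjusted p = 3.14e-05). Gas5 had 86.1 and 52.6 in control and 39.1 and 31.7 after DMDA-PatA, again without overlap, a log2 change of -0.95 ± 0.44 (edgeR, adjusted p = 0.0313). The Gas5 call was lost without control library 1, DMDA-PatA library 2 or either puromycin library, and its value without control library 1 was -0.57.

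For the other 8 hosts no change passed the test. Snhg5, the most footprinted host without an embedded small RNA, had 779 and 582 in control and 333 and 486 after the drug, lower in both but with a log2 difference of -0.73 ± 0.42 (edgeR, adjusted p = 0.0858), which passed without DMDA-PatA library 2 or either harringtonine library. Snhg15 had 211 and 201 against 118 and 169, and Snhg11 67.2 and 87.0 against 55.6 and 48.7, each apart from control. Snhg6 (86.1 and 89.7 against 64.4 and 82.0) lay lower in both drug libraries too.
The other 4 hosts overlapped with control. Snhg17 had 94.3 and 58.9 in control and 52.4 and 76.3 after DMDA-PatA, Snhg12 111 and 92.5 against 80.8 and 98.2, and Snhg3 211 and 123 against 110 and 127. Snhg20 had 2214 and 2656 in control and 2396 and 6275 after DMDA-PatA, so 1 library alone was high, and its log2 difference of 0.83 ± 0.43 (edgeR, adjusted p = 0.0552) was -0.024 without that library and 1.37 without the other. It was called higher without DMDA-PatA library 1 or either harringtonine library. In this fit 98.1% to 99.7% of all tested transcripts, most of them coding, had a lower log2 value than each host apart from Snhg18, for which the share was 84.2%. Among the other noncoding RNAs the 5th to 95th percentile ran from -5.62 to 0.308, a span that held every host except Snhg20.

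Harringtonine raised footprints on 4 of the 10 hosts and lowered none, whereas 86.1% of all tested transcripts were called lower and 0.916% higher. The median log2 change was 0.46 over the hosts, -2.22 over all transcripts and -0.91 over other noncoding RNAs, of which 48.7% were called lower and 5.34% higher. Snhg17 rose from 94.3 and 58.9 to 265 and 169, a log2 change of 1.50 ± 0.43 (edgeR, adjusted p = 0.000624). Snhg5 rose from 779 and 582 to 1999 and 1182, a log2 change of 1.22 ± 0.43 (edgeR, adjusted p = 0.00524). In both RNAs each drug library exceeded each control. Snhg15 went from 211 and 201 to 417 and 322 (0.84 ± 0.41, edgeR, adjusted p = 0.0459). Gas5 went from 86.1 and 52.6 to 214 and 64.4 (1.00 ± 0.42, edgeR, adjusted p = 0.0219), where the second harringtonine library lay between the controls.

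The harringtonine calls hung on single libraries. Without harringtonine library 1 the Gas5 value was -0.093 and the host counts became 2 higher and 2 lower, without harringtonine library 2 they became 5 and 0, and without control library 2 no host was called, although Snhg17 (1.20) and Snhg5 (1.03) kept their sign. Snhg15 was called neither without a control library, nor without harringtonine library 1, nor without a puromycin library.

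The remaining 6 hosts did not pass. Snhg12 had 215 and 119 footprints after harringtonine, both above its controls. Snhg18 had 16.2 and 11.2, both below its controls. Snhg11 (137 and 44.1), Snhg3 (228 and 58.1), Snhg6 (116 and 33.6) and Snhg20 (2736 and 2016) each had 1 library above and 1 below both controls, the first library being the higher. Snhg3 and Snhg6 were called lower without harringtonine library 1, at -1.52 and -1.39.

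Puromycin raised 3 hosts and lowered 2, where 84.2% of all tested transcripts were called lower and 0.396% higher, and 46.6% of other noncoding RNAs were lower. The host median was 0.38, against -2.10 over all transcripts. Snhg17 rose to 186 and 188 (1.29 ± 0.43, edgeR, adjusted p = 0.00386), Snhg12 to 190 and 238 from 111 and 92.5 (1.08 ± 0.42, edgeR, adjusted p = 0.0142), and Snhg5 to 1199 and 1350 (0.91 ± 0.42, edgeR, adjusted p = 0.0395). Every puromycin library of these hosts exceeded both controls.

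The lowered hosts were Snhg3 and Snhg6. Both overlap a coding exon of another gene, Snhg6 on the opposite strand, and whether the overlap bears on these falls was not tested. Snhg3 fell from 211 and 123 to 80.6 and 70.9 (-1.14 ± 0.44, edgeR, adjusted p = 0.0117), and Snhg6 from 86.1 and 89.7 to 31.0 and 54.7 (-0.999 ± 0.46, edgeR, adjusted p = 0.0344). Neither group overlapped its control. Gas5 (91.0 and 87.0) and Snhg15 (310 and 327) lay above both controls without passing, and Snhg11 (64.1 and 62.2) below both. Snhg20 (4349 and 2011) and Snhg18 (29.0 and 9.95) straddled their controls. With 1 library left out at a time the number of raised hosts ranged from 0, without control library 2, to 3 and the number of lowered ones from 0, without control library 1 or puromycin library 1, to 2. Without control library 2 the raised hosts kept their sign, at 0.99 for Snhg17, 0.95 for Snhg12 and 0.71 for Snhg5. Snhg17 alone was called higher without control library 1 or puromycin library 2, Snhg5 was not called without puromycin library 1, and 1 host remained called lower without control library 2 (Snhg3) or puromycin library 2 (Snhg6).

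**Figure D2:**
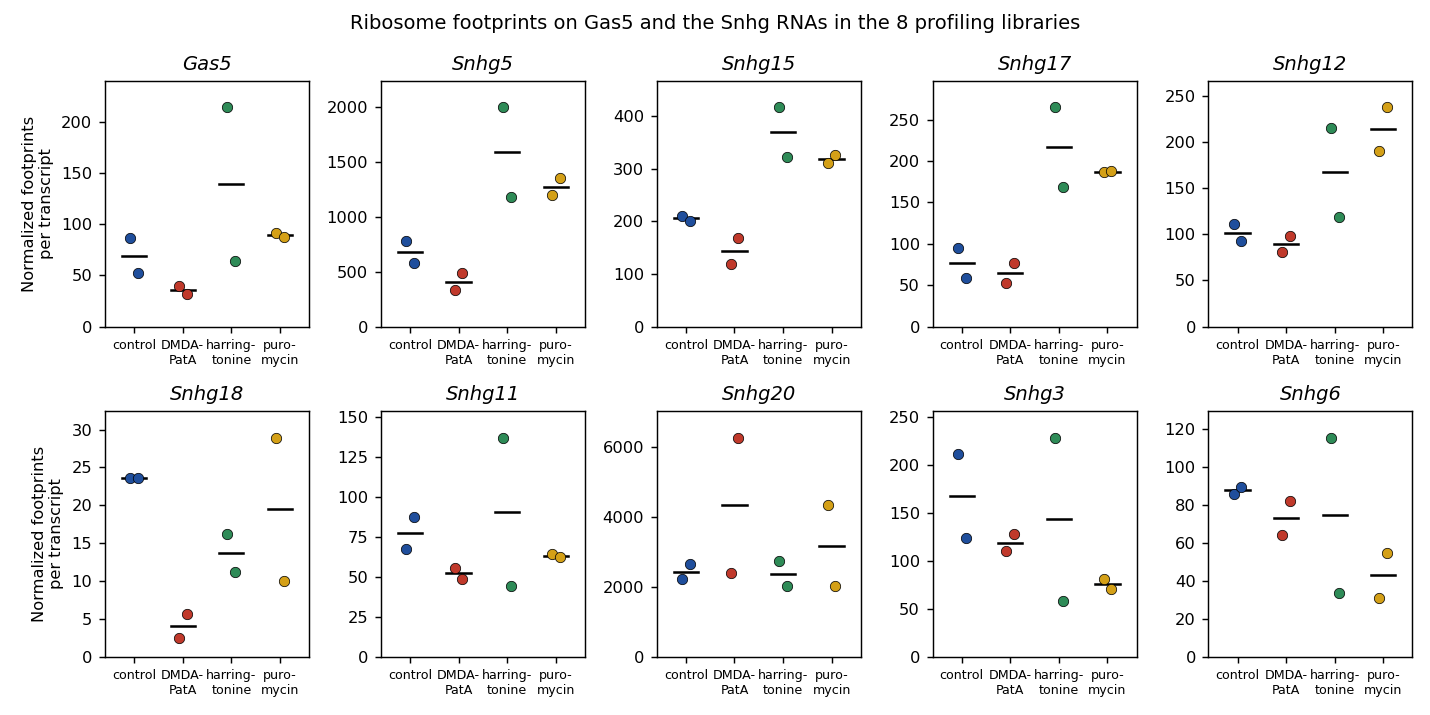
Normalized footprints of each host RNA in the 8 profiling libraries, 1 panel per RNA with its own axis from 0, where points are libraries and bars are means of 2. Both harringtonine and both puromycin libraries lie above both controls for Snhg5, Snhg12, Snhg15 and Snhg17, and Snhg18 falls to 2.53 and 5.68 with DMDA-PatA.

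**Figure D3:**
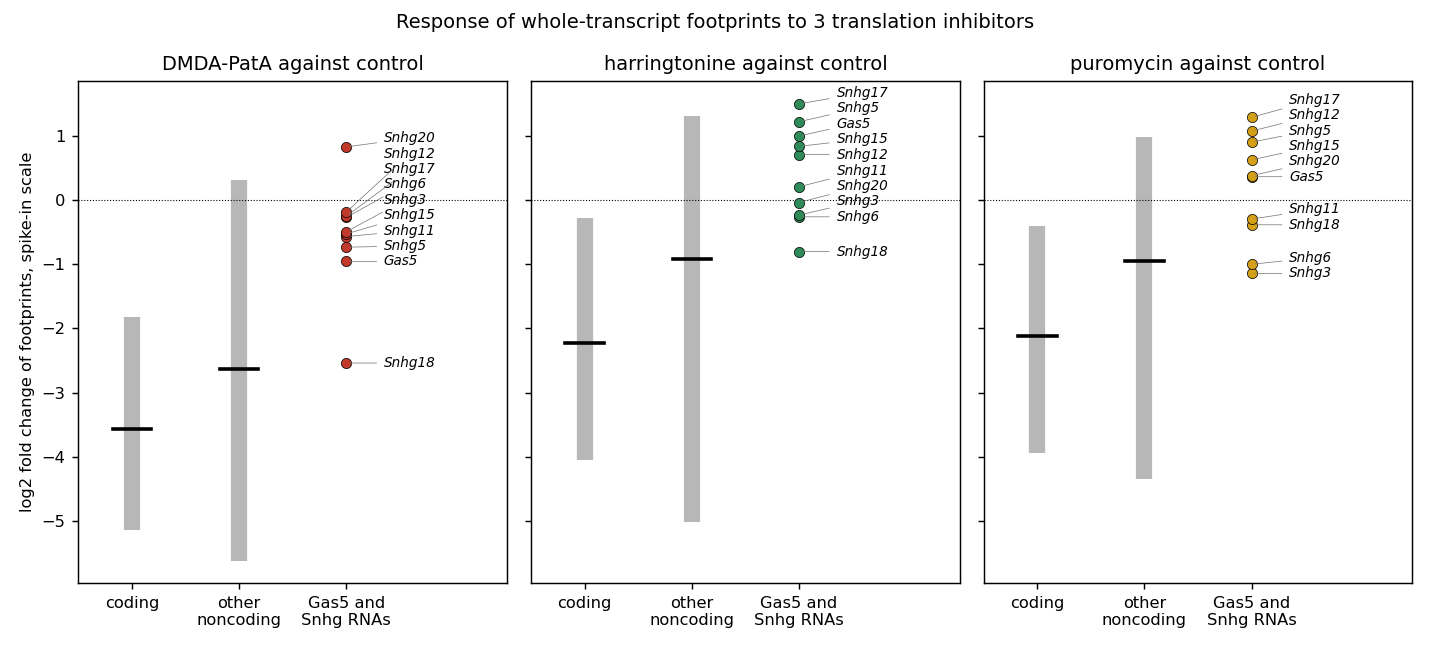
Log2 fold change of footprints against control for each drug on the spike-in scale, with the host RNAs as points and, for coding and other noncoding transcripts, the median as a black line and the span from the 5th to the 95th percentile in grey. With DMDA-PatA the points other than Snhg18 lie above the grey span of coding transcripts, whose median is -3.57. The span of other noncoding transcripts, from -5.62 to 0.308, holds every point except Snhg20.

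All these values rest on the spike-in scale, on which the typical transcript falls. Scaling to the typical transcript instead (TMM) shifts the median log2 change of all transcripts from -3.55 to -0.08 for DMDA-PatA, from -2.22 to -0.06 for harringtonine and from -2.10 to -0.02 for puromycin. Relative to the typical transcript 9 hosts were called higher with DMDA-PatA, beside 20.2% of all transcripts, and 10 with each of the other drugs, beside 27.7% for harringtonine and 26.1% for puromycin. No host was called lower, beside 25.2%, 31.2% and 27.5% of all transcripts. Every lowered host named above changed sign, including Gas5 (2.60) and Snhg18 (0.90) with DMDA-PatA and Snhg3 (0.95) and Snhg6 (1.10) with puromycin. Which spike-in factors belong to DMDA-PatA and which to harringtonine is also in doubt, because the study's own transcript-level means were made with them the other way round from the deposited values while its ORF-level means were not, and the sources used here do not settle it. With the factors of these libraries swapped harringtonine raised the same 4 hosts but lowered 3, Snhg3 (-0.65), Snhg6 (-0.65) and Snhg18 (-1.04), with a host median of 0.13 beside -2.47 over all transcripts. DMDA-PatA then also lowered Snhg5 (-0.51) and raised Snhg20 (0.93). The share of all transcripts called with swapped factors is not given, so these counts only show how host calls moved.

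Set directly against harringtonine, DMDA-PatA left fewer footprints on 5 hosts and more on none, with 59.4% of all transcripts called lower and 0.481% higher. The log2 differences were -1.96 ± 0.44 for both Gas5 (edgeR, adjusted p = 5.15e-05) and Snhg5, -1.75 ± 0.43 for Snhg17, -1.74 ± 0.63 for Snhg18 and -1.37 ± 0.41 for Snhg15. Against puromycin 6 hosts were lower, beside 60.6% of all transcripts, while 0.753% of all transcripts and no host were higher. They were Snhg18 (-2.16 ± 0.67), Snhg5 (-1.64 ± 0.43), Snhg17 (-1.54 ± 0.43), Gas5 (-1.32 ± 0.45), Snhg12 (-1.26 ± 0.42) and Snhg15 (-1.15 ± 0.42, edgeR, adjusted p = 0.0115). The host medians, -1.13 and -1.21, lay near the medians of all transcripts, -1.32 and -1.39, and the shares of hosts called resembled those of all transcripts. Without harringtonine library 1 the Gas5 difference from harringtonine was -0.85 and neither it nor that of Snhg18 was called, and Snhg18 was also not called without DMDA-PatA library 1. In the puromycin contrast the calls of Gas5, Snhg12, Snhg15 and Snhg18 were lost without 1 or more of DMDA-PatA library 1 and the puromycin libraries, while Snhg5 and Snhg17 were called whichever library was left out.

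For the 4 hosts with a small RNA in an exon, footprints were counted apart for the stretch around the small RNA and for the rest of the transcript. This split was chosen after the values were seen. On Snhg20 only 2.72% and 1.54% of control footprints lay outside the small RNAs, against 20.2% and 13.6% of transcriptome reads. The stretch at its Cajal body RNA held 2154 and 2615 footprints in control and 2371 and 6252 after DMDA-PatA, while the rest of the RNA held 60.1 and 40.8 in control and 25.3 and 23.5 after the drug. Outside the small RNAs the groups did not overlap, and the log2 change was -1.03 ± 0.46 (edgeR, adjusted p = 0.0257).

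Snhg3 showed the same division. Its Snora73a stretch held 127 and 58.9 footprints in control and 73.2 and 95.0 after DMDA-PatA, while the rest went from 83.7 and 64.4 to 36.6 and 32.5. The log2 change outside Snora73a was -1.09 ± 0.44 (edgeR, adjusted p = 0.0141). With these reads set aside DMDA-PatA lowered 4 hosts, the other 2 being Gas5 and Snhg18, beside an unchanged 98.0% of all transcripts, and the host median was -0.73. In puromycin the Snora73a stretch of Snhg3 went to 24.8 and 26.1, and the rest to 55.8 and 44.8, where the log2 difference of -0.57 ± 0.46 was no longer called (edgeR, adjusted p = 0.233), which left 1 host, Snhg6, lowered.

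Snhg15 and Snhg12 carried most of their footprints outside the snoRNA, at 76.5% and 83.3% of control footprints for Snhg15 and 75.5% and 93.1% for Snhg12. The Snora9 stretch of Snhg15 held 49.5 and 33.5 footprints in control and 36.6 and 51.9 after DMDA-PatA, which overlapped. The rest held 162 and 168 in control, 81.4 and 117 after DMDA-PatA, 386 and 302 after harringtonine and 265 and 290 after puromycin. Those groups were all apart from control, with the DMDA-PatA difference at -0.73 ± 0.42 (edgeR, adjusted p = 0.0786) and the harringtonine change at 1.06 ± 0.41 (edgeR, adjusted p = 0.0121). Outside Snord99, Snhg12 had 83.7 and 86.1 in control and 63.8 and 84.4 after DMDA-PatA, a log2 difference of -0.20 ± 0.43 that did not pass (edgeR, adjusted p = 0.64).

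**Figure D4:**
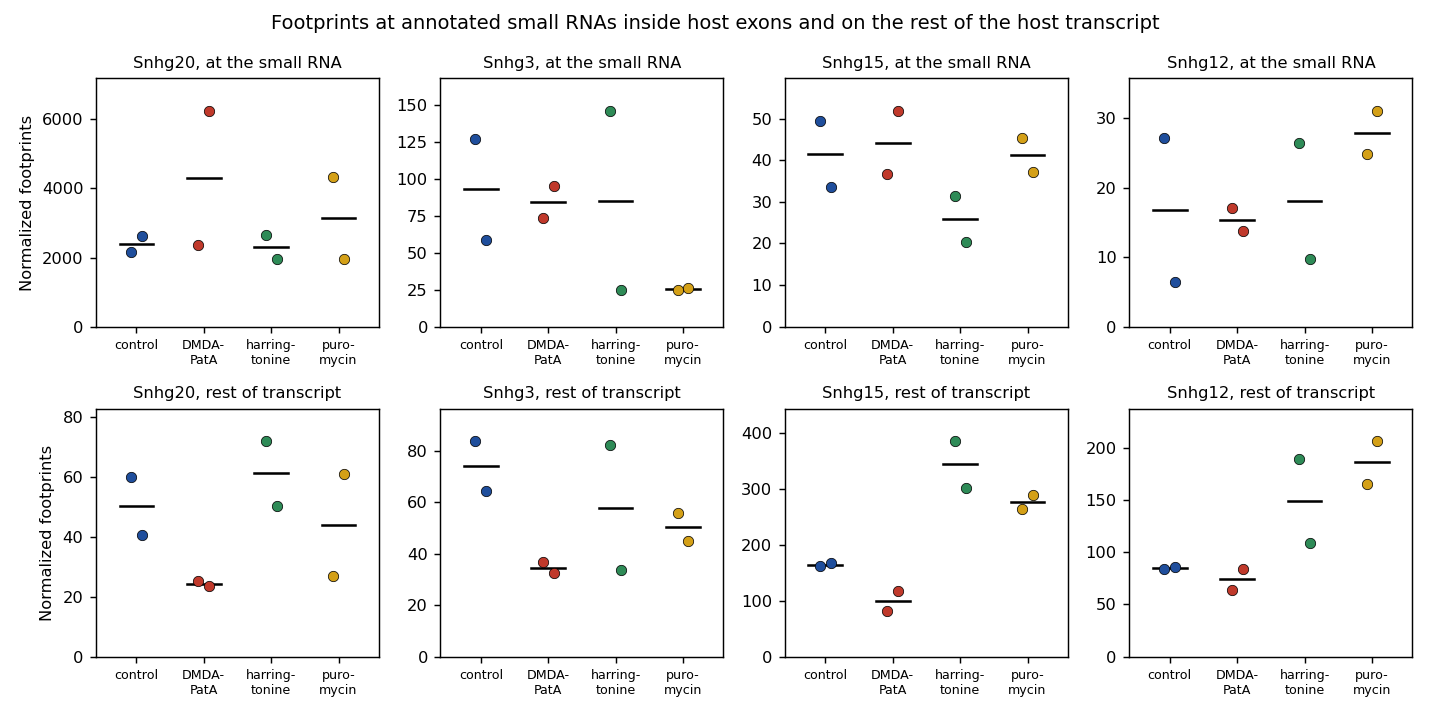
Normalized footprints of Snhg20, Snhg3, Snhg15 and Snhg12 at the small RNA annotated in an exon (upper row) and on the rest of the transcript (lower row), with points for libraries and bars for means of 2. On the rest of Snhg20, Snhg3 and Snhg15 both DMDA-PatA points lie below both control points, whereas at the small RNAs they overlap with control or exceed it.

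Within a host, single ORFs responded very differently. For each transcript the ORF with the most control footprints was tested, a choice made on control libraries that also enter the comparison, so part of a fall can follow from the choice. Snhg11 had too few reads on its ORF for the test. Of the other 9 hosts, 4 fell with DMDA-PatA on that ORF and none rose, beside 99.4% lower and 0.0400% higher among 12495 ORFs. With harringtonine 3 rose and 1 fell (0.456% higher and 92.9% lower over all), and with puromycin 3 rose and 2 fell (0.336% and 90.2%). Relative to the typical transcript (TMM) each of these called falls changed sign, and of the falls with DMDA-PatA on other ORFs described below only that of the Snhg5 ORF at nt 214 kept its sign.

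On Gas5 the CUG ORF at nt 247 to 456 fell from 79.0 and 48.0 footprints to 30.9 and 25.97 with DMDA-PatA (-1.14 ± 0.46, edgeR, adjusted p = 0.0133), and was at 201 and 58.8 with harringtonine and 88.9 and 85.8 with puromycin. Of the AUG ORFs nested in the same stretch 3 were looked at after their values were seen, in a fit of all 14472 listed ORFs with enough reads. The ORF at nt 269 to 337 held 60.1 and 32.6 in control, 14.5 and 7.31 after DMDA-PatA, 175 and 51.1 after harringtonine and 80.6 and 82.1 after puromycin. It fell with DMDA-PatA by 2.03 on the log2 scale (SE 0.52, edgeR, adjusted p = 9.04e-05). The ORF at nt 290 to 337, in the same frame and with the same end, is the AUG start nearest to the control footprints and held the same number of them. It fell by 2.08 with DMDA-PatA (SE 0.52, edgeR, adjusted p = 6.48e-05), and both of these ORFs rose with harringtonine, by 1.28 and 1.27 on the log2 scale, calls lost without control library 2 or harringtonine library 1. The ORF at nt 337 to 456 held 18.9 and 15.4 in control and 16.4 and 18.7 after DMDA-PatA, which overlapped, and fell only with puromycin, to 8.27 and 3.73 (-1.60 ± 0.72, edgeR, adjusted p = 0.0325). The fall of the large Gas5 ORF was not called without control library 1 or DMDA-PatA library 2, and the puromycin fall of the nested one was lost without either control library or puromycin library 2. The ORF at nt 247 to 456 also fell relative to the rest of Gas5, by 1.48 on the log2 scale (SE 0.66, edgeR, adjusted p = 0.0371). The scaling of libraries cancels in this test, but the choice of the ORF on control footprints does not. Part of the fall can thus follow from that choice. The rest held only 5.89 and 3.63 control footprints, and the call was lost without control library 1, control library 2 or DMDA-PatA library 2.

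Snhg5 held the sharpest contrast between neighbouring ORFs. The 9-nt AUG ORF at nt 60 held 274 and 193 footprints in control, 87.1 and 157 after DMDA-PatA, 441 and 258 after harringtonine and 387 and 463 after puromycin. Its DMDA-PatA change was -0.94 ± 0.44 (edgeR, adjusted p = 0.0314), lost without either control library, DMDA-PatA library 1 or either puromycin library. The AUG ORF at nt 162 to 218 held 160 and 143 in control but 13.9 and 32.5 after DMDA-PatA, then 341 and 292 after harringtonine and 327 and 427 after puromycin. All 3 drugs were clear of control there, with log2 changes of -2.73 ± 0.48 (edgeR, adjusted p = 2e-08), 1.06 ± 0.43 and 1.31 ± 0.44. The harringtonine and puromycin calls were lost when either control library was left out, and the latter also without puromycin library 2.

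A CUG ORF that overlaps its end, at nt 214 to 243, was chosen after its values were seen. It went from 57.8 and 42.6 footprints to 1.26 and 2.44 with DMDA-PatA, worth 2 and 3 reads, a log2 change of -4.72 ± 0.66 (edgeR, adjusted p = 1.83e-12). With harringtonine it held 279 and 174 (2.17 ± 0.45) and with puromycin 130 and 124 (1.35 ± 0.46, not called without control library 2). Upstream of both, a CUG ORF at nt 104 to 130, also picked afterwards, rose with every drug, from 16.5 and 10.9 in control to 27.8 and 54.4 after DMDA-PatA, 48.7 and 32.9 after harringtonine and 39.3 and 43.5 after puromycin (1.59 ± 0.52 for DMDA-PatA, edgeR, adjusted p = 0.00231). These 3 calls were lost without control library 2, and that for DMDA-PatA also without DMDA-PatA library 2.

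On Snhg17 the leading ORF by control footprints, a CUG ORF at nt 176 to 430, held 49.5 and 23.6 in control, 14.5 and 28.4 after DMDA-PatA, 72.0 and 41.3 after harringtonine and 57.9 and 87.0 after puromycin, and rose only with puromycin (1.02 ± 0.47, edgeR, adjusted p = 0.0331, lost without control library 2 or puromycin library 2). The AUG ORF nearest the 5′ end, at nt 17 to 139, was examined after its values were seen. It held 28.3 and 24.5 in control, 27.1 and 27.6 after DMDA-PatA, 166 and 110 after harringtonine and 95.1 and 77.1 after puromycin. The DMDA-PatA libraries thus lay between the controls, while the harringtonine change was 2.38 ± 0.48 (edgeR, adjusted p = 1.06e-06) and the puromycin change 1.70 ± 0.49. Relative to the rest of the RNA the leading CUG ORF fell with harringtonine by 1.32 on the log2 scale (SE 0.46, edgeR, adjusted p = 0.00869, lost without control library 1). With the leading ORF taken over all 8 libraries in place of control, which selects another ORF, the sign reversed. That ORF rose relative to the rest of Snhg17 with harringtonine, by 1.68. Its choice draws on the harringtonine libraries, so part of this rise can follow from the choice.

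Snhg15 divided its footprints between overlapping ORFs at its 5′ end. The CUG ORF at nt 52 to 243 went from 123 and 125 to 51.8 and 74.7 with DMDA-PatA (-0.97 ± 0.44, edgeR, adjusted p = 0.0262) and to 267 and 232 with harringtonine (1.01 ± 0.43). The AUG ORF at nt 24 to 128 held 73.1 and 85.2 in control, 33.5 and 60.9 after DMDA-PatA, 255 and 220 after harringtonine and 188 and 184 after puromycin, with called rises of 1.58 ± 0.44 (edgeR, adjusted p = 0.000405) and 1.23 ± 0.44. The CUG ORF at nt 445 to 618, which overlaps Snora9, held 27.1 and 20.8 in control and 34.1 and 51.1 after DMDA-PatA, above both controls without passing the test. The CUG ORF at nt 15 to 128, which contains the AUG ORF at nt 24, held the same control footprints and changed by 1.61 ± 0.44 with harringtonine and 1.23 ± 0.44 with puromycin. In all 12 listed ORFs, many of them overlapping, held at least 10% of the control footprints of Snhg15. Of these DMDA-PatA lowered 4 and raised none, with log2 values from -1.41 to 0.83, harringtonine raised 4 and puromycin 3, and neither lowered any. The lowest value was that of the AUG ORF at nt 243 to 269, which went from 43.6 and 44.4 to 18.3 and 14.6 with DMDA-PatA (-1.41 ± 0.49, edgeR, adjusted p = 0.00447) and was called whichever library was left out. With 1 library left out the counts ranged from 1, without either control library or DMDA-PatA library 1, to 10, without either harringtonine library, for falls with DMDA-PatA, from 2, without control library 1, to 5 for rises with harringtonine, and from 0, without either control library, to 4 for rises with puromycin. Relative to the rest of Snhg15 the CUG ORF at nt 52 fell with DMDA-PatA by 0.94 on the log2 scale (SE 0.36, edgeR, adjusted p = 0.0173). The fall of this ORF was lost without either control library or DMDA-PatA library 1, its fall relative to the rest without control library 2 or either DMDA-PatA library, and its harringtonine rise without either control library, as was the puromycin rise of the AUG ORF.

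On Snhg12 the CUG ORF at nt 23 to 199 held 38.9 and 45.3 footprints in control, 23.4 and 35.7 after DMDA-PatA, 137 and 83.3 after harringtonine and 124 and 164 after puromycin. It rose by 1.37 ± 0.45 with harringtonine (edgeR, adjusted p = 0.0026) and by 1.78 ± 0.46 with puromycin (edgeR, adjusted p = 0.000152). The AUG ORF inside it, at nt 113 to 199 and again chosen afterwards, went the other way with harringtonine, from 14.1 and 6.35 to 0 and 2.10, a fitted change of -2.91 ± 0.89 (edgeR, adjusted p = 0.00128) that was lost without control library 1, and was at 26.9 and 33.6 with puromycin. The footprints gained with harringtonine lay mostly before nt 113, where the cumulative value went from 18.9 and 18.1 in control to 135 and 78.4. Relative to the rest of Snhg12 the outer ORF rose with harringtonine (1.45 ± 0.43) and puromycin (1.49 ± 0.45, edgeR, adjusted p = 0.00403). Without control library 1 this puromycin difference and the harringtonine rise of the outer ORF were not called.

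The leading ORFs of Snhg3 and Snhg20 lie inside the small RNAs. The Snhg3 ORF at nt 34 to 63, inside Snora73a, held 66.0 and 38.1 footprints in control, 60.6 and 69.8 after DMDA-PatA and 6.20 and 22.4 after puromycin. Relative to the rest of Snhg3 it rose with DMDA-PatA by 1.43 ± 0.48 (edgeR, adjusted p = 0.00679). The AUG ORF at nt 245 to 304, beyond the snoRNA and chosen afterwards, fell from 50.7 and 41.7 to 25.3 and 15.4 (-1.16 ± 0.48, edgeR, adjusted p = 0.0163), a call lost without either control library or DMDA-PatA library 2. On Snhg20 the CUG ORF at nt 447 to 521 held 1966 and 2438 footprints in control and 2197 and 5907 after DMDA-PatA. The other 3 ORFs with at least 10% of the control footprints of Snhg20, at nt 433 to 516, nt 461 to 526 and nt 469 to 516, share most of these reads, and none of the 4 was called with any drug, at log2 values of 0.76 to 0.88 with DMDA-PatA. All 4 were called higher when DMDA-PatA library 1 or either harringtonine library was left out, and with the spike-in factors of DMDA-PatA and harringtonine swapped. The AUG ORF at nt 169 to 378 held 11.8 and 5.44 in control and 1.89 and 0.812 after DMDA-PatA, 3 reads and 1 read.

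Snhg18 and Snhg6 each had a leading CUG ORF. That of Snhg18, at nt 210 to 410, went from 20.0 and 12.7 footprints to 0.631 and 4.87 with DMDA-PatA (-2.62 ± 0.68, edgeR, adjusted p = 0.000135), 8.12 and 5.60 with harringtonine and 22.7 and 3.73 with puromycin. This ORF met the read filter only with the control libraries, on which it was also picked. Part of its fall can follow from the filter and the choice. The ORF of Snhg6 at nt 586 to 618 was at 62.5 and 61.6 in control, 48.6 and 60.9 after DMDA-PatA and 18.6 and 38.5 after puromycin (-1.06 ± 0.49, edgeR, adjusted p = 0.0343), lost without either control library or puromycin library 1.

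Over the 104 host ORFs with enough reads, many of which overlap and share reads, DMDA-PatA lowered 36 and raised 2, beside 96.9% lower and 0.359% higher among the 14472 ORFs. Harringtonine lowered 9 and raised 27 (89.0% and 1.10% over all), and puromycin lowered 6 and raised 23 (85.2% and 0.850%). All 6 tested ORFs of Snhg18 and 10 of 17 on Snhg5 fell with DMDA-PatA, against 0 of 20 on Snhg12 and 0 of the 5 ORFs that lie inside a small RNA. The whole Snhg18 RNA held only 20 and 26 reads in control and 4 and 7 after DMDA-PatA. Its ORFs thus passed the filter of 10 reads through other conditions, the leading one only with control. They count the same few reads again, so they are not separate support. In the test of an ORF against the rest of its RNA, DMDA-PatA lowered 2 and raised 1 of 8 hosts (91.4% lower and 0.646% higher over 7272 transcripts), harringtonine lowered 2, Snhg17 and Snhg5, and raised Snhg12 (91.8% and 1.43%), and puromycin raised Snhg12 alone (76.3% and 1.25%). The ORF tested was the one with the most control footprints, so part of a fall relative to the rest can follow from that choice. With the ORF taken over all 8 libraries, a choice that draws on the harringtonine libraries too, the Snhg17 difference with harringtonine reversed its sign.

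**Figure D5:**
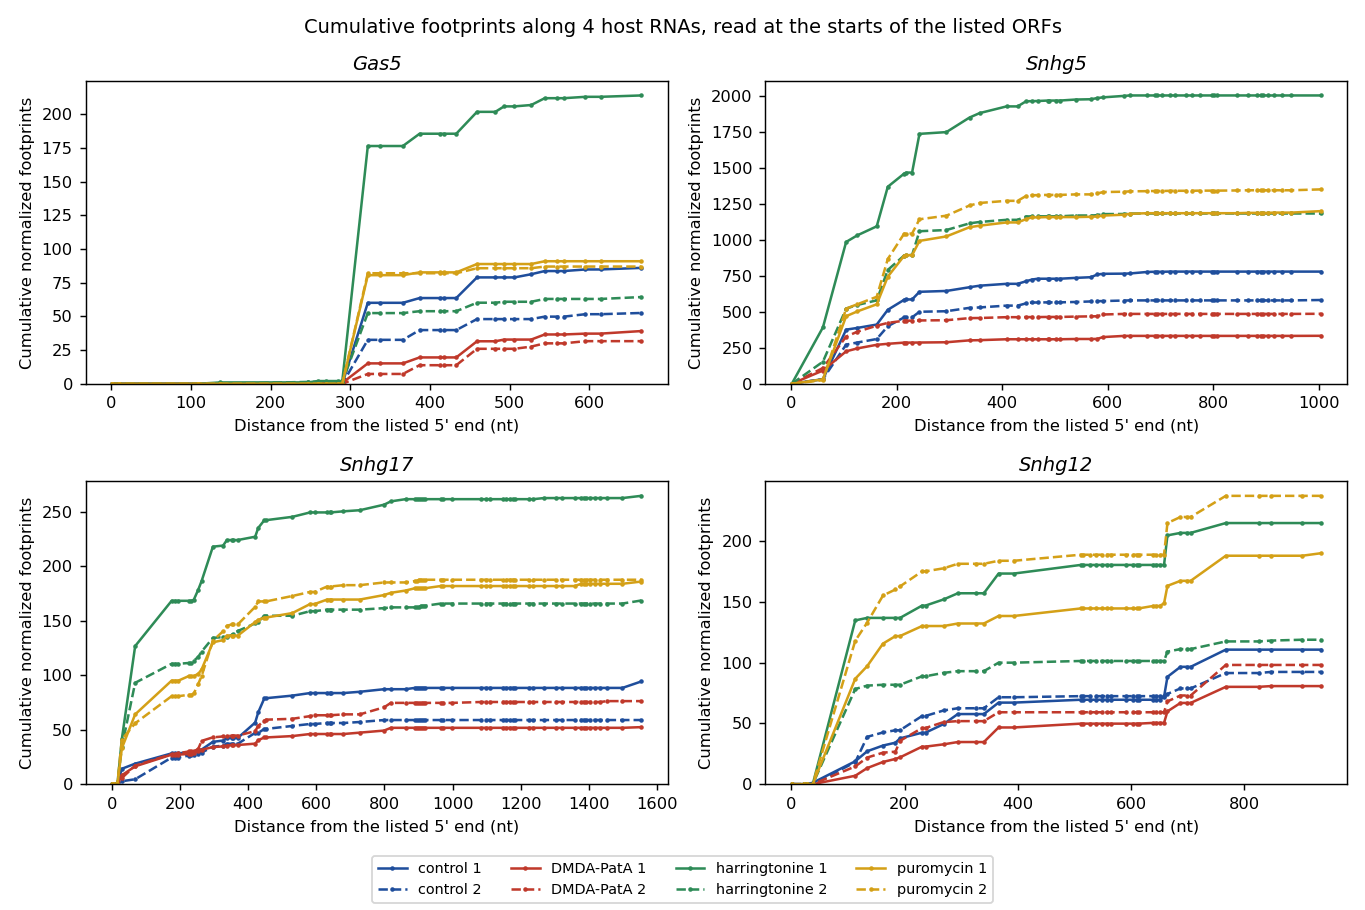
Cumulative normalized footprints along Gas5, Snhg5, Snhg17 and Snhg12, from the listed 5′ end in nt, read at the starts of the listed ORFs, with 1 line per profiling library. On Gas5 the control lines leave 0 between nt 290 and nt 322. On Snhg5 the DMDA-PatA lines climb from 271 and 403 at nt 162 to 333 and 486 at the end, less than the other lines.

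Footprints on genes related to the host RNAs were looked at beside them. The lists were drawn up with earlier results of these data known. Of 4 other noncoding snoRNA hosts 2 were listed and 1 was tested: Epb41l4aos had 56.6 and 83.4 footprints in control and 24.6 and 47.9 after DMDA-PatA (-0.97 ± 0.44, edgeR, adjusted p = 0.0293), near the value of Gas5. Dancr, with 18.9 and 6.35 in control, had too few reads. Of 33 symbols of protein-coding genes that host snoRNAs in introns, older and newer names included, 25 were tested. DMDA-PatA lowered 23 and raised none, with a median of -3.54 beside -3.55 over all transcripts. Harringtonine lowered 17 and raised 2 of them and puromycin lowered 18 and raised none, with medians of -1.35 and -1.94, beside 86.1% and 84.2% of all transcripts lower and medians of -2.22 and -2.10. Rack1, a ribosomal scaffold protein, went from 42413 and 39179 footprints to 1525 and 2468 with DMDA-PatA (-4.35 ± 0.50), and Ncl, the nucleolar protein nucleolin, from 35341 and 35461 to 2974 and 5530 (-3.06 ± 0.47).

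Footprints on the mRNAs of proteins that package snoRNAs mostly fell, as they did on most transcripts. Of 12 tested snoRNP genes DMDA-PatA lowered 11 and raised 1, harringtonine lowered 9 and raised 1, and puromycin lowered 10 and raised none. Over all transcripts 98.0%, 86.1% and 84.2% were lower. Nop58 and Nop56, core proteins of C/D snoRNPs, changed by -4.71 ± 0.50 and -4.34 ± 0.49 with DMDA-PatA. Snu13, which binds the kink-turn of these snoRNAs, was the gene that rose, from 18.9 and 14.5 to 38.5 and 40.6 (1.25 ± 0.49, edgeR, adjusted p = 0.0118), and the methyltransferase gene Fbl rose with harringtonine, from 49.5 and 50.8 to 143 and 101. Snu13 and Fbl had the fewest control footprints of this list, with means of 16.7 and 50.1 against 7206 for Nop58. Whether reads left out for several matches in the genome account for such low values was not tested, so both rises are uncertain. All 10 tested genes of nonsense-mediated decay fell with each of the 3 drugs, with medians of -4.04, -3.28 and -3.006, beside the same 98.0%, 86.1% and 84.2% of all transcripts and medians of -3.55, -2.22 and -2.10. The helicase Upf1 went from 4681 and 4680 footprints to 92.2 and 107 with DMDA-PatA (-5.55 ± 0.52), and Smg8 from 1984 and 1785 to 138 and 237 (-3.33 ± 0.45).

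The transcripts whose response was most like that of Gas5 were found by the root mean square difference of the 6 log2 ratios of drug to mean control, over the 8928 transcripts with at least 100 control footprints. The closest were Hist1h4n (0.376), Hist1h3g (0.391), Platr12 (0.441), Rps2 (0.473) and Hist1h3f (0.509). Reads with several matches in the genome were left out upstream, so values of the histone genes and Rps2, which have near-identical copies, are uncertain. Among the hosts in that set Snhg15 ranked 13 (0.539), Snhg5 15 (0.559) and Snhg12 36 (0.684), while Snhg3 (1.18) and Snhg20 (1.25) ranked 199 and 246.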

How the data were processed

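Ribosome profiling and transcriptome libraries were sequenced on SOLiD instruments. The authors aligned reads to mm10 (GRCm38) with LifeScope, left out reads with several matches, placed footprints by their P site, and deposited per-ORF signal values divided by DESeq2 size factors, from a spiked-in RNA for footprints and between replicates for the transcriptome. In every library 100% of values were whole multiples of 1 read's value (tolerance 0.01 reads), so whole reads and size factors were recovered.

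Whole-transcript reads were 5′ UTR, ORF and 3′ UTR reads of 1 row per transcript. edgeR 4.0.16 (quasi-likelihood test, limma 3.58.1, R 4.3.3) was run on every feature that reached 10 reads in 2 or more libraries, with the 8 profiling libraries in one fit on the authors' size factors, Benjamini-Hochberg adjustment over all features tested and calls at 0.05. SEs were |log2 change| over the square root of F. DESeq2 1.42.0, TMM, no filter, a replicate block and left-out libraries were alternatives. Tables were made with Python 3.11.15, numpy 2.4.6 and pandas 2.3.3. The test was tried on simulated counts. Positions, symbols and small RNAs came from GENCODE M21.

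All host RNAs were described. Each had its ORF with the most control footprints named, and for the 3 hosts with the most control footprints the ORFs with at least 10% of them were described, on Snhg15 in part by counts. The members and gene lists were chosen with earlier results of these data known. With 2 libraries per condition precision is set by the spread between libraries.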

Additional observations from a re-analysis of the deposited data

How the results depend on the processing

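The scale was the choice that mattered most. With TMM in place of the spike-in factors the transcripts called lower against control numbered 3245 (DMDA-PatA), 4021 (harringtonine) and 3541 (puromycin), 2133 and 2120 for DMDA-PatA against harringtonine and puromycin, and 2946, 3741 and 3111 for the leading ORFs with the 3 drugs, all fewer, since this scaling sets the typical transcript near 0. Hosts called were then 0 lower and 9 higher for DMDA-PatA, 10 higher for harringtonine, and 0 lower and 10 higher for puromycin, beside the shares given above. For DMDA-PatA against harringtonine 1 host was lower and 3 were higher, beside 16.6% and 16.5% of all transcripts. For DMDA-PatA against puromycin 0 hosts were lower and 4 higher, beside 16.5% and 16.3% of all transcripts. Whole-transcript log2 values that changed sign were, for DMDA-PatA, Snhg11 2.95, Snhg15 2.96, Snhg17 3.25, Snhg3 3.04, Snhg6 3.22, Gas5 2.60, Snhg18 0.90, Snhg12 3.33 and Snhg5 2.76. For harringtonine they were Snhg3 1.82, Snhg6 1.79, Snhg20 2.13 and Snhg18 1.36, and for puromycin Snhg11 1.76, Snhg3 0.95, Snhg6 1.10 and Snhg18 1.63. For DMDA-PatA against puromycin they were Snhg15 0.25, Gas5 0.14 and Snhg12 0.16. Leading ORFs that changed sign with TMM were, for DMDA-PatA, Snhg15 3.24, Gas5 3.14, Snhg18 1.54 and Snhg5 3.27, for harringtonine Snhg18 1.62, and for puromycin Snhg3 0.78 and Snhg6 1.42. Other ORFs that did so were Snhg17 nt 264 2.91, Snhg3 nt 245 3.11, Gas5 nt 269 2.25, Gas5 nt 290 2.20, Snhg20 nt 169 1.65 and Snhg5 nt 162 1.44 for DMDA-PatA, Snhg12 nt 113 0.023 with harringtonine and Gas5 nt 337 0.85 with puromycin. The assignment of size factors to the DMDA-PatA and harringtonine libraries is not settled by the sources, and swapping them gave 1 host higher with DMDA-PatA, 3 lower with harringtonine, 1 higher for DMDA-PatA against harringtonine and 2 higher against puromycin, and turned Snhg12 with DMDA-PatA to 0.069 and Snhg11 with harringtonine to -0.17.

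With the reads at embedded small RNAs set aside, an alternative chosen after seeing the data, 4 hosts fell with DMDA-PatA, 1 fell with puromycin and 1 lay above its transcriptome level. Snhg20 then had log2 values of -1.03 with DMDA-PatA, 0.28 with harringtonine, -0.14 with puromycin and -2.39 against the transcriptome. With DESeq2 3 hosts rose with harringtonine, 1 fell with puromycin, and 1 lay above and 5 below their transcriptome level. With the leading ORF taken over all libraries, which selects another ORF on Snhg17, that ORF rose relative to the rest of its RNA by 1.68 with harringtonine, a reversed sign. Part of this rise can follow from the choice, which draws on the harringtonine libraries. Same-numbered libraries deviated together only weakly, with correlations over transcripts of 0.0671 for control and DMDA-PatA, 0.0404 for control and harringtonine, 0.00115 for control and puromycin and 0.0497 for control and transcriptome, so the numbers were not taken to pair them. With the replicate number as a block 1 host fell with DMDA-PatA, 2 rose with harringtonine, 1 fell and 2 rose with puromycin, and 5 lay below their transcriptome level. The share of all transcripts called is not given for DESeq2, the block or the swapped factors. Those host counts only show how calls moved.

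With 1 library left out at a time, 1 to 3 hosts fell and 0 to 1 rose with DMDA-PatA, 0 to 2 fell and 0 to 5 rose with harringtonine, 0 to 2 fell and 0 to 3 rose with puromycin, and 1 to 2 lay above their transcriptome level. For DMDA-PatA against harringtonine 4502 to 9132 transcripts were called lower, with 3 to 8 hosts lower and 0 to 3 higher, and against puromycin 4854 to 8658, with 3 to 6 hosts lower. Log2 values that changed sign ranged, with DMDA-PatA, from -0.55 to 0.12 for Snhg17 and from -0.024 to 1.37 for Snhg20. With harringtonine they ranged from -0.81 to 0.82 for Snhg11, -1.52 to 0.46 for Snhg3, -1.39 to 0.39 for Snhg6, -0.093 to 1.64 for Gas5, -0.27 to 0.17 for Snhg20 and -0.095 to 1.68 for the leading Gas5 ORF. With puromycin they ranged from -0.28 to 0.84 for Snhg20 and from -1.24 to 0.30 for Snhg18. A fit that leaves 1 library in a condition takes its spread from the other conditions. Unless a value above shows it, the cause of these shifts was not tested. At 1 to 3 reads per library, as on the Snhg5 ORF at nt 214 and the Snhg20 ORF at nt 169 after DMDA-PatA, the size of a fall is limited by depth.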
